A study of Mus musculus with 2 samples.

Results

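The smooth muscle contractile genes are the genes whose products build and drive the contractile machinery of smooth muscle cells. The group holds Acta2, Actg2, Myh11, Myl9, Mylk, Cnn1, Tagln, Smtn, Lmod1 and Des, which were chosen by symbol. All 10 genes were on the array, with 15 of its 41174 probes, and on both arrays each of the 15 probes was well above background in the transgenic and in the wild-type pool. The study hybridised RNA of ventral prostates pooled from 6 mice with an ARR2PB-miR32 transgene together with RNA pooled from 6 wild-type mice, all of the FVB/N strain (also spelled FBV/N in the labels) and 6 months of age. The ARR2PB promoter, built from probasin elements, responds to androgen and is active in the prostate epithelium, so the transgene is not directed at smooth muscle. The pair of pools was hybridised to 2 two-colour Agilent arrays, with the transgenic pool in Cy3 on array 1 and in Cy5 on array 2. Both arrays carry the same RNA, so each genotype had 1 replicate, no p-value is given, and each ± below is the SD of 2 technical arrays (n = 2) that leaves out the spread between mice.

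In smooth muscle, actin thin filaments slide past myosin thick filaments once myosin light chain kinase has phosphorylated the regulatory light chain of myosin. Calcium bound to calmodulin switches that kinase on, and a myosin phosphatase reverses the step. Smooth muscle cells surround the ducts and acini of the prostate, and their contraction expels the secretion. Most genes of the contractile programme are switched on by serum response factor (SRF) and its coactivator myocardin, which act at a DNA element called the CArG box.

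The sequence of the microRNA that the transgene is named for is shown because only the transgenic pool carries that transgene. RefSeq (GRCm38.p6) places mature miR-32-5p on the minus strand at chr4:56895272-56895293, and the capitals mark its seed, bases 2 to 8.
mmu-miR-32-5p: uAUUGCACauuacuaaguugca
Of 1679 mature mouse miRNA names in the RefSeq table, 6 had this seed, miR-32-5p included, and the others were miR-25-3p, miR-92a-3p, miR-92b-3p, miR-363-3p and miR-367-3p.

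Promoter windows from RefSeq (GRCm38.p6), each from 250 bases before to 50 bases after a gene's start, were matched for 7 of the 10 genes, those other than Actg2, Myh11 and Tagln. They were searched for the CArG box, which reads the same on both strands. An exact match stood in the window of 1 of the 7 genes, Myl9, against 1.63% of 32851 windows of all genes. With up to 1 departure from the motif, 3 of the 7 windows held a match, against 21.1% of all windows. Stretches upstream of the start of these 3 genes are shown because SRF sites are the best-known shared element of the programme. Capitals mark each match, and positions are counted from the start site. The exact match of Myl9 lay at -161 to -152 and its second match at -99 to -90, on the plus strand of chr2:156775273-156775404. The matches of Acta2 lay at -84 to -75 and -34 to -25, on the minus strand of chr19:34255374-34255487. Those of Lmod1 lay at -189 to -180 and -164 to -155, on the plus strand of chr1:135324594-135324688.
Myl9: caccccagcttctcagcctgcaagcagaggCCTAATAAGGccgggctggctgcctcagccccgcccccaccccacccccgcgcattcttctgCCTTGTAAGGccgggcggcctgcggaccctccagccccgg
Acta2: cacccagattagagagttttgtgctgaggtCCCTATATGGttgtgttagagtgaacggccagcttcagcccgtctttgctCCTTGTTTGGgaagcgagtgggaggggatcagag
Lmod1: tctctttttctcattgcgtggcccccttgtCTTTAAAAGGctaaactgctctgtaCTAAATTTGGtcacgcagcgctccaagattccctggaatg
A match is a description of the letters and does not show that a factor binds there.

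Most contractile genes had ratios a little below 0, and none passed the rule for a call. Of the 10 genes, 9 had a mean log2 ratio of transgenic over wild type below 0, as did 48.3% of all detected genes. They ranged from -0.77 for Cnn1 to -0.02 for Smtn, and Mylk stood above 0 at 0.09. The median of the 10 was -0.34, against 0.01 over all 13929 detected genes. By that rule, which asks for a mean log2 ratio of 1 or more in size and for 1.5-fold or more on array 1 and on array 2 alike in that direction, 0 genes of the group were higher and 0 lower. The rule called 3.52% of all detected genes lower and 1.09% higher. On both arrays 7 of the 10 were below 0, as were 27.2% of all detected genes, and 0 were above 0 on both, against 24.7%. By a smaller rule, a log2 ratio beyond 0.32 in size in one direction on each array, 3 of the 10 were lower (Myl9, Cnn1 and Des), against 9.99% of all detected genes, and 0 were higher, against 4.73%. Fewer smooth muscle cells and less of these RNAs per cell cannot be told apart in pooled tissue.

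The position of a spot on the array bore on these ratios, so each is also given after the trend over rows and columns was removed, an alternative chosen after seeing the data. Arrays have 532 rows, and over all probes detected in both pools the median log2 ratio on array 1 was -0.18 in rows 1 to 133 and 0.52 in rows 400 to 532. On array 2, where the dyes were swapped, it was 0.10 and -0.27. With the trend removed these 4 medians lay between -0.03 and 0.05. Pearson's r between the arrays across detected genes, which are not independent replicates, was then 0.69, against 0.51 before. Spearman's rank correlation was lower, at 0.40 with the trend removed and 0.16 before, so the arrays shared little of the order of the ratios before its removal. With the trend removed the median of the group was -0.42, with 7 genes below 0 on both arrays and 1 above, against 32.1% of all detected genes below 0 on both. By the smaller rule, 5 genes were then lower (Actg2, Myl9, Cnn1, Des and Acta2) and 0 higher, against 10.9% and 5.0% of all detected genes, and 0 were called, against 3.62% called lower. Feature Extraction's own ratios gave a median of -0.49, against 0.05 over all detected genes. By these ratios 8 genes of the group were below 0 on both arrays, against 28.5% of all detected genes. Of the group 0 were called, against 6.73% of all detected genes called lower and 2.24% called higher.

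**Figure D1:**
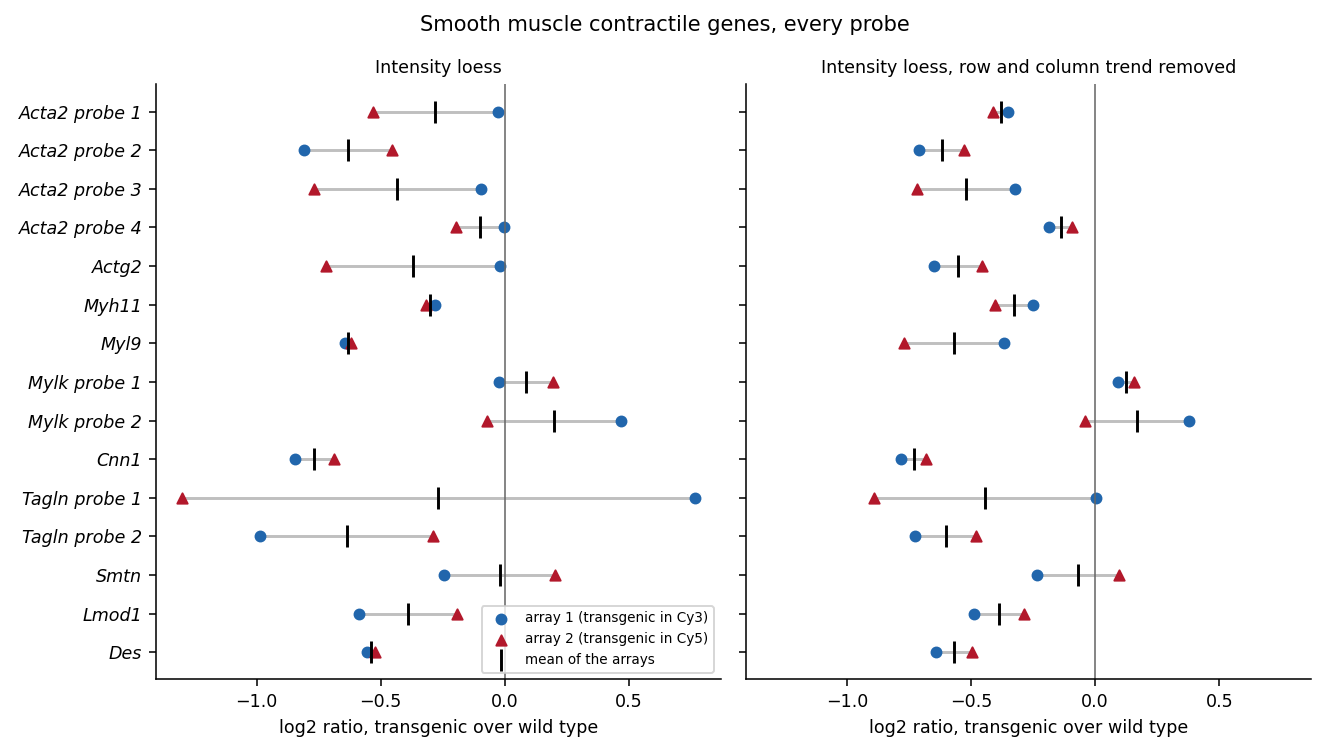
Log2 ratio of transgenic over wild type for each of the 15 probes, from the intensity normalization alone (left) and with the trend over rows and columns removed (right). Circles are array 1, triangles array 2 and bars their mean, and 13 of 15 means lie below 0 in each panel.

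The actins of the thin filament come first. Acta2 encodes alpha smooth muscle actin, the main actin of vascular smooth muscle and of myofibroblasts. Its brightest probe, A_52_P420504, had log2 levels of 12.45 and 12.48 in the transgenic pool on arrays 1 and 2, against 12.48 and 13.01 in the wild-type pool. The transgenic level was the lower one on both arrays, on array 1 by almost nothing, and across arrays the pools touched. The ratio was -0.03 on array 1 and -0.53 on array 2, with a mean of -0.28 ± 0.36 (n = 2), or 82.3% of wild type. Removal of the trend gave -0.35 and -0.41, with a mean of -0.38 ± 0.04.

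This Acta2 probe was printed as 10 spots, which show the trend directly. On array 1, 2 spots were outliers and the other 8 ran from -0.88 to 0.44 with an SD of 0.53, and 2 of the 8 were below 0. The spots above 0 all lay in rows 400 to 510. On array 2, 1 spot was an outlier and the other 9 ran from -0.91 to -0.10, all of them below 0. With the trend removed, all 8 spots of array 1 and all 9 of array 2 were below 0, and their SDs were 0.22 and 0.11. Part of the trend was left in this probe. On array 1 its spots still ran from -0.69 in row 92 to -0.04 in row 510. On array 2 they ran from -0.29 in row 92 to -0.63 in row 465. Over the 110 probes that were printed 10 times and detected in both pools, the median SD between spots was 0.26 on array 1 and 0.19 on array 2, and 0.12 on both arrays with the trend removed.

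The other 3 Acta2 probes also had means below 0. They were -0.63 ± 0.25 (A_51_P450957), -0.43 ± 0.48 (A_52_P210078) and -0.10 ± 0.14 (A_52_P239556), and with the trend removed -0.62, -0.52 and -0.14. The last one was the dimmest, with log2 levels of 7.32 and 7.33 in the transgenic pool and 7.32 and 7.53 in the wild-type pool. All 4 probes were below 0 on both arrays, although array 1 put the dimmest one at 0 within rounding.

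Actg2 encodes gamma smooth muscle actin, the actin of visceral smooth muscle. Its only probe had log2 levels of 10.40 and 10.20 in the transgenic pool, against 10.42 and 10.92 in the wild-type pool. The pools did not overlap, but they were almost level on array 1 and apart on array 2, with ratios of -0.02 and -0.72 and a mean of -0.37 ± 0.50. This spot lay in row 456, and with the trend removed the ratio was -0.65 and -0.45, with a mean of -0.55 ± 0.14, or 68.2% of wild type. The mean was -0.67 by Feature Extraction's ratios. Actin genes are alike in sequence, and their probes were not checked for shared signal.

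Myosin and its light chain form the thick filament. Myh11 encodes the smooth muscle myosin heavy chain, the marker most restricted to smooth muscle. Its log2 level was 10.01 and 9.95 in the transgenic pool, against 10.29 and 10.26 in the wild-type pool. The pools did not overlap, and both arrays gave nearly the same ratio, -0.28 and -0.32, with a mean of -0.30 ± 0.02 or 81.3% of wild type. Removal of the trend gave a mean of -0.33 ± 0.11.

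Myl9 encodes the regulatory light chain that myosin light chain kinase phosphorylates. It had log2 levels of 13.25 and 13.21 in the transgenic pool, against 13.89 and 13.83 in the wild-type pool. The pools did not overlap, with ratios of -0.64 and -0.62 and a mean of -0.63 ± 0.02, or 64.5% of wild type. Its spot lay in row 2, and with the trend removed the arrays differed more, at -0.37 and -0.77, while the mean was -0.57.

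Mylk encodes myosin light chain kinase, and it was the only gene of the group with a mean above 0. Its brightest probe, A_52_P575217, had log2 levels of 11.46 and 11.45 in the transgenic pool, against 11.48 and 11.26 in the wild-type pool. The pools overlapped and the arrays differed in sign, at -0.02 and 0.20, with a mean of 0.09 ± 0.15. The other probe, A_52_P145912, gave 0.47 and -0.07, with a mean of 0.20 ± 0.38. After removal of the trend the means were 0.12 ± 0.05 and 0.17 ± 0.30, or 109% and 112% of wild type. The gene also encodes non-muscle forms of the kinase, and which forms the probes detect was not examined.

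**Figure D2:**
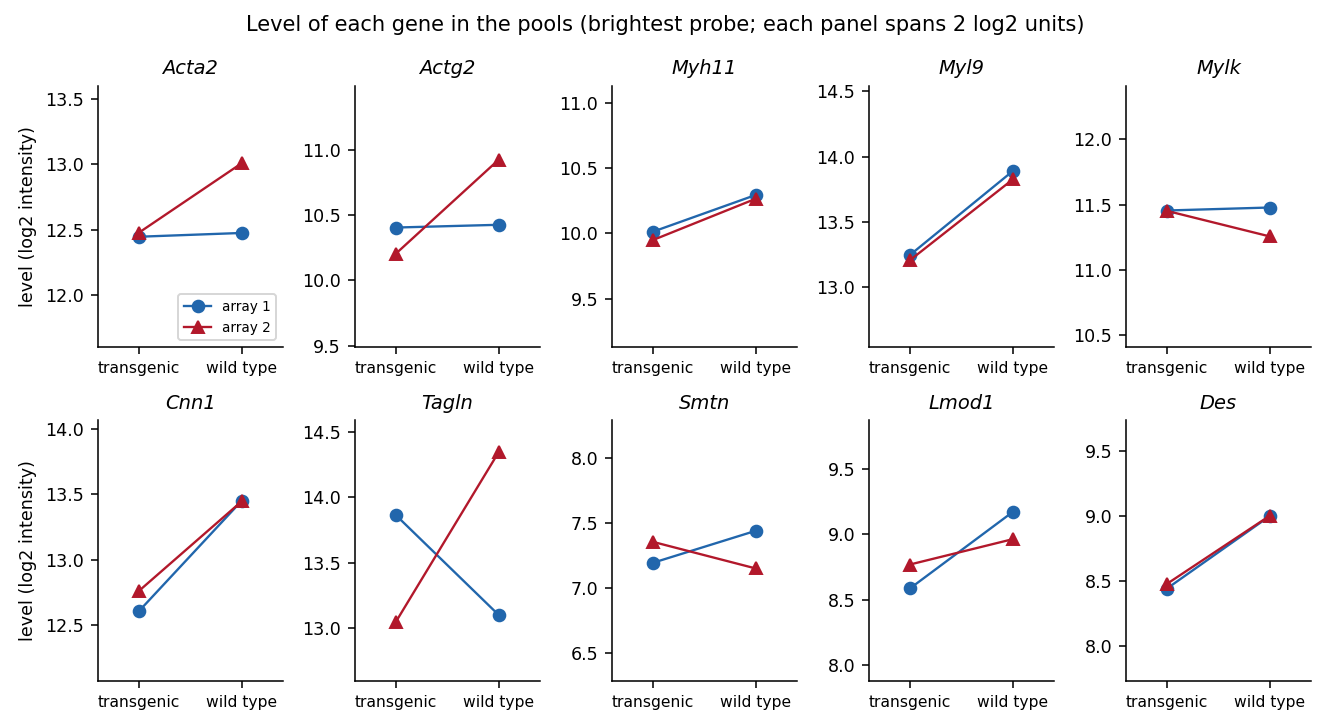
Log2 level of each gene in the transgenic pool (left of each panel) and the wild-type pool (right), by its brightest probe, with circles for array 1 and triangles for array 2. Myh11, Myl9, Cnn1 and Des have the transgenic pool lower by similar amounts on both arrays, and Tagln has lines that cross.

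Among actin-binding proteins, Cnn1 had the lowest ratio of the group. Cnn1 encodes calponin, which binds actin and inhibits the myosin ATPase. Its log2 level was 12.60 and 12.76 in the transgenic pool, against 13.45 and 13.45 in the wild-type pool. The pools did not overlap, with ratios of -0.85 and -0.69 and a mean of -0.77 ± 0.11, or 58.7% of wild type. The mean was -0.73 ± 0.07 with the trend removed and -0.77 by Feature Extraction's ratios, so this value moved little with the processing apart from median centring (-0.56).

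Tagln encodes transgelin (SM22-alpha), an actin-crosslinking protein of differentiated smooth muscle. Its brightest probe, A_51_P450527, had log2 levels of 13.86 and 13.05 in the transgenic pool, against 13.10 and 14.35 in the wild-type pool. The pools overlapped and the arrays opposed each other, at 0.77 and -1.30, with a mean of -0.27 ± 1.46. This spot lay in row 528, among the last rows of the array. With the trend removed the ratio was 0.00 on array 1 and -0.89 on array 2. The other probe, A_52_P517683, whose spot lay in row 60, was below 0 on both arrays, at -0.99 and -0.29. Its mean was -0.64 ± 0.49, or 64.3% of wild type, and -0.60 ± 0.17 with the trend removed.

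Smtn encodes smoothelin, which binds actin filaments in contractile smooth muscle. Its log2 level was 7.19 and 7.36 in the transgenic pool, against 7.44 and 7.15 in the wild-type pool. The pools overlapped, with ratios of -0.25 and 0.20 and a mean of -0.02 ± 0.32. Lmod1 encodes leiomodin, which nucleates actin filaments. Its log2 level was 8.59 and 8.77 in the transgenic pool, against 9.17 and 8.96 in the wild-type pool. The pools did not overlap, and the ratios of -0.59 and -0.19 averaged -0.39 ± 0.28, or 76.3% of wild type, with the same mean once the trend was removed.

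Des encodes desmin, the intermediate filament protein of muscle cells. It had log2 levels of 8.44 and 8.48 in the transgenic pool, against 9.0 on both arrays in the wild-type pool. The pools did not overlap, with ratios of -0.56 and -0.52 and a mean of -0.54 ± 0.02, or 68.8% of wild type. Its probe was printed as 10 spots as well. On array 1, 9 of 10 spots were below 0, and all 10 were below 0 with the trend removed, with an SD of 0.09. On array 2, 1 spot was an outlier, and of the other 9, 8 were below 0. The remaining one, in row 522, was 0.12, or 0.52 with the trend removed. The median over spots gave a mean of -0.57 for Des.

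**Figure D3:**
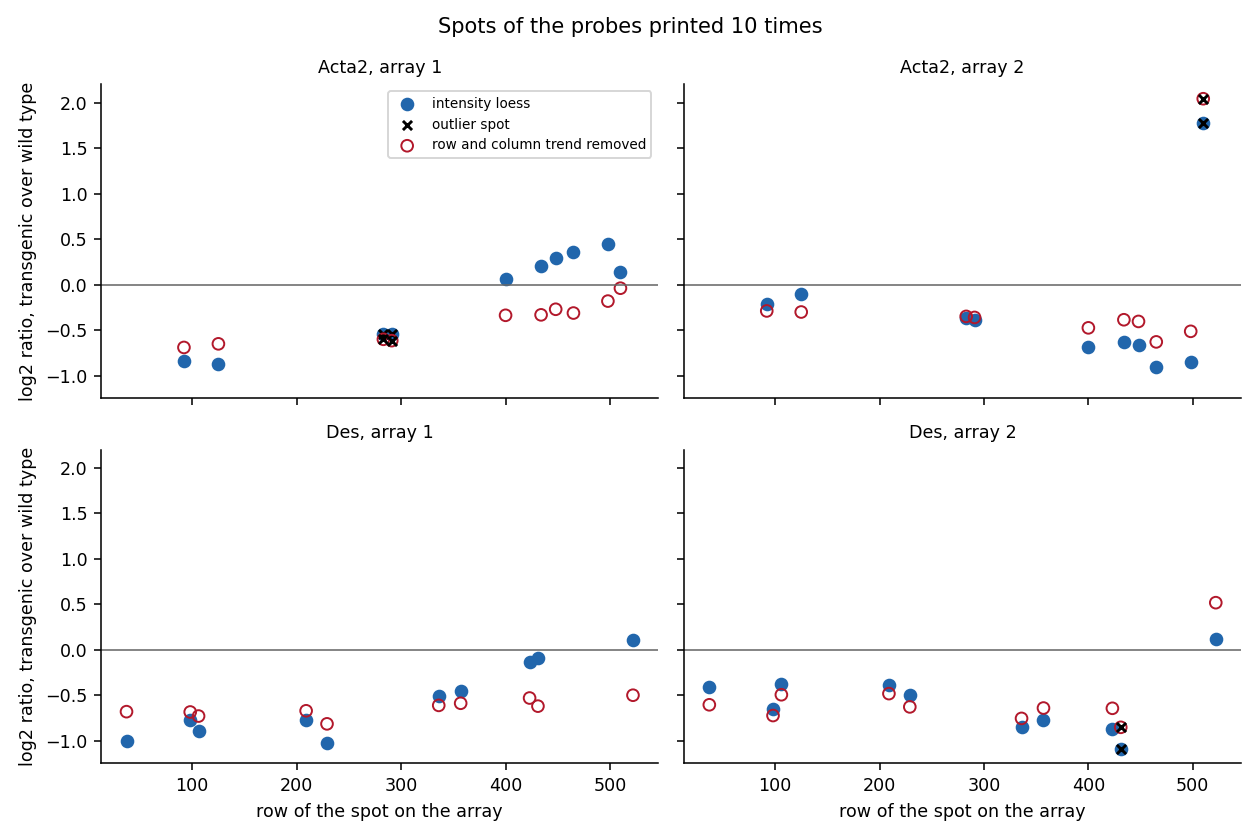
Log2 ratio of transgenic over wild type of each spot of Acta2 and Des against its row on the array, from the intensity normalization alone (filled) and with the trend removed (open), with crosses on outlier spots. Most filled points climb along the rows on array 1, and most descend on array 2, while most open points lie between -0.8 and -0.2.

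The rest of the contractile and cytoskeletal apparatus also had a median below 0. Of 30 listed genes for other filaments, dense plaques and the cytoskeleton of smooth muscle, 27 were detected. Their median was -0.28, with 17 below 0 and 2 above 0 on both arrays, against 27.2% and 24.7% of all detected genes. Of the 27, 0 were called lower and 1 higher, against 3.52% and 1.09% of all detected genes. With the trend removed the median of the list was -0.22, against -0.42 for the contractile genes. Of the 27, 18 were then below 0 on both arrays, against 32.1% of all detected genes. By the smaller rule 6 were lower and 2 higher before the trend was removed, against 9.99% and 4.73% of all detected genes. After its removal 10 were lower and 1 higher, against 10.9% and 5.0%. Synm, which encodes the intermediate filament protein synemin that partners desmin, stood at -0.65 ± 0.39, and its other probe at -0.33. Fhl1, a LIM-domain protein of muscle, stood at -0.64 ± 0.02. The called gene was Filip1l, a filamin-interacting protein, at 1.19 ± 0.04. It was not called with the trend removed, at 0.38 on array 1 and 1.36 on array 2.

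Genes that couple excitation to contraction had a median near 0. Of 28 listed genes for receptors, channels, calcium handling and the myosin phosphatase, 14 were detected. On both arrays 4 of the 14 were below 0 and 2 above 0, against 27.2% and 24.7% of all detected genes. None of the 14 was called (0 higher and 0 lower), against 1.09% and 3.52% of all detected genes. The median of the list was -0.06 with the trend removed. The angiotensin receptor gene Agtr1a stood at -0.46 ± 0.42, with -0.19 by its other probe, and the endothelin receptor gene Ednrb at -0.37 ± 0.40, with -0.31 by its other probe. Ppp1r12b, a targeting subunit of myosin phosphatase, stood at 0.24 ± 0.10, and at 1.24 by Feature Extraction's ratios, where it was called higher. The wild-type pool was well above background for Ppp1r12b on 1 of the 2 arrays.

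Transcriptional regulators of the programme were often too dim to measure. Of 19 listed genes, 17 were on the array and 9 were detected, with a median of -0.10. Of the 9, 0 were called, against 3.52% of all detected genes called lower and 1.09% called higher. The gene for myocardin (Myocd) was not detected. Srf stood at 0.08 ± 0.57, with 0.48 on array 1 and -0.33 on array 2, and at -0.11 with the trend removed. Mef2c, a MADS-box factor of muscle, lymphocytes and other cells, stood at -0.98 ± 0.53, and the transgenic pool was well above background for it on 1 of the 2 arrays. It was called lower with the trend removed, at -1.14. Jag1, a Notch ligand, stood at -0.66 ± 0.07, and Klf4, a repressor of the programme, at -0.37 ± 0.16.

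Non-muscle actin and myosin genes, which most cells express, also had a median below 0. They ran wider than the contractile genes, from -1.16 for Cnn2 to 0.29 for Myh10, named after its value was seen. Their median was -0.25 over 14 detected genes, with 7 below 0 and 1 above 0 on both arrays, 1 called lower and 0 higher. Over all detected genes those shares were 27.2%, 24.7%, 3.52% and 1.09%. The contractile genes had a median of -0.34. With the trend removed the median was -0.27 for the non-muscle list and -0.42 for the contractile genes. By Feature Extraction's ratios it was -0.30 and -0.49. Cytoplasmic beta-actin (Actb) stood at -0.61 ± 0.36 and gamma-actin (Actg1) at -0.48 ± 0.59, with -0.34 by the other probe of Actg1. The called gene was the non-muscle calponin Cnn2, at -1.16 ± 0.57. Tpm4, a non-muscle tropomyosin, stood at -0.95 ± 0.08. By the brightest probes, only Cnn1 and Myl9 of the contractile genes had a mean farther below 0 than Actb, and no test compares the lists.

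**Figure D4:**
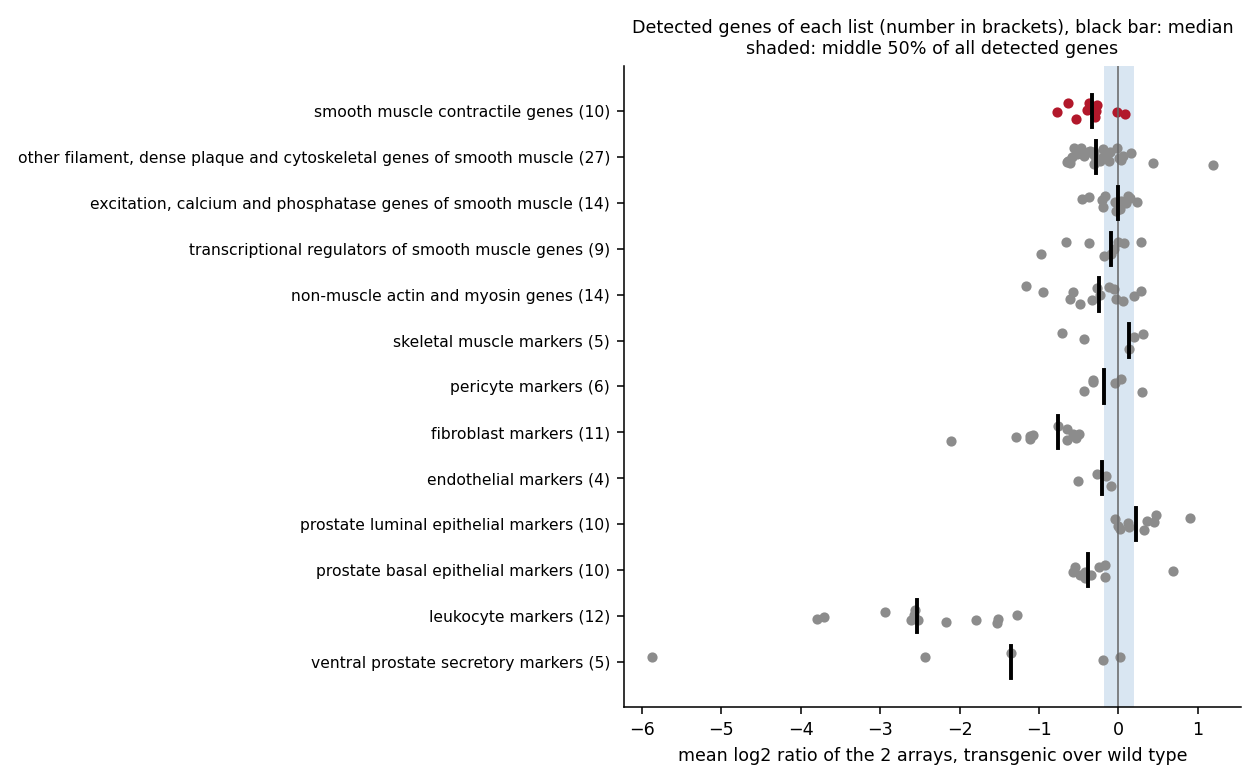
Mean log2 ratio of transgenic over wild type of each detected gene, by list, with the contractile genes in red, black bars for list medians and shading for the middle 50% of all detected genes. Contractile genes lie between -0.77 and 0.09, while leukocyte genes have a median of -2.54.

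Markers of other cells that could share or dilute these signals were measured beside them. Among pericyte markers, which mark the other mural cell of vessels, Cspg4 (-0.43 ± 0.48), Kcnj8 (-0.33 ± 0.11) and Mcam (-0.32 ± 0.45) were farthest from 0. The 6 detected of 8 on the array had a median of -0.18. Of these 6, 0 were called, against 3.52% of all detected genes called lower and 1.09% called higher. Their median has no settled sign: it was -0.013 for the 2 detected in both pools, 0.084 in the series table and 0.013 on array 2 alone, and Notch3, named after its values were seen, was above 0 on both arrays. Of 15 skeletal muscle markers 10 were not detected, among them Ckm, Actn3 and Atp2a1. The 5 detected had a median of 0.13, which has no settled sign either, since it was -0.20 on array 2 alone, -0.16 in the series table, -0.15 for genes detected in both pools and 0.00 with the trend removed. Farthest from 0 were Tnnt3 at -0.71 ± 0.09, Acta1 at -0.43 ± 0.33 and Tnnc2 at 0.31 ± 1.00. Fibroblast markers had a lower median than the contractile genes, -0.76, with -0.58 on array 1 and -1.04 on array 2. Of the 11 detected, 4 were called lower, against 3.52% of all detected genes. The 4 were Thy1 (-2.10 ± 0.83), Vim (-1.29 ± 0.06), Lum (-1.11 ± 0.09) and Col3a1 (-1.11 ± 0.05). Endothelial markers had a median of -0.21 over 4 detected of 10, with Egfl7 at -0.51 ± 0.36, Emcn at -0.27 ± 0.09 and Vwf at -0.15 ± 0.24.

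Luminal epithelial markers had a median of 0.23 over 10 genes, and Epcam (0.90 ± 0.11), Cldn4 (0.47 ± 0.26) and Cdh1 (0.44 ± 0.34) were farthest from 0. Basal markers had a median of -0.38 over 10 genes, with Itga6 at -0.57 ± 0.11 and Trp63 at -0.55 ± 0.70. Of the luminal and of the basal markers 0 were called, against 3.52% of all detected genes called lower and 1.09% called higher. All 12 leukocyte markers were called lower, against 3.52% of all detected genes, with a median of -2.54. Only 7 of the 12 were detected in both pools, and the rest passed detection through the wild-type pool alone. With detection asked for in both pools the median was -2.56. Among the 12 were Cd79b (-3.80), Ms4a1 (-3.70), H2-Ab1 (-2.94), Ctss (-2.62) and Ptprc (-2.57). The transgenic pool was well above background for Ms4a1 and Ptprc on 1 of the 2 arrays, so their sizes depend on the background correction: Feature Extraction's ratios gave -5.22 for Ms4a1 and -3.94 for Ptprc. The other probes of Ptprc stood at -1.12 and -1.0. Mean log2 levels of the 12 leukocyte markers were 8.0 and 8.29 in the transgenic pool, against 10.4 and 10.7 in the wild-type pool, and those of the 11 fibroblast markers were 8.87 and 8.83 in the transgenic pool, against 9.67 and 9.91 in the wild-type pool. Those of the 10 luminal markers were 12.1 on both arrays in the transgenic pool, against 11.8 and 11.9 in the wild-type pool. The part of these cell types in the ratios of contractile genes was not tested.

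All 5 ventral prostate secretory markers were detected and all 6 seminal vesicle markers were not. The sample labels name the ventral prostate, while the growth description allows for ventral or dorsolateral prostates, and dorsolateral tissue was not tested for. Of the ventral prostate markers 3 were called lower, against 3.52% of all detected genes. The 3 were Spink1 (-5.88 ± 0.21), Mmp7 (-2.44 ± 0.92) and Sbp (-1.35 ± 0.55). The other markers of this list, named after their values were seen, were Pbsn (0.02 ± 0.50) and Msmb (-0.20 ± 1.11). Neither was called, and each had opposite signs on the 2 arrays.

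**Figure D5:**
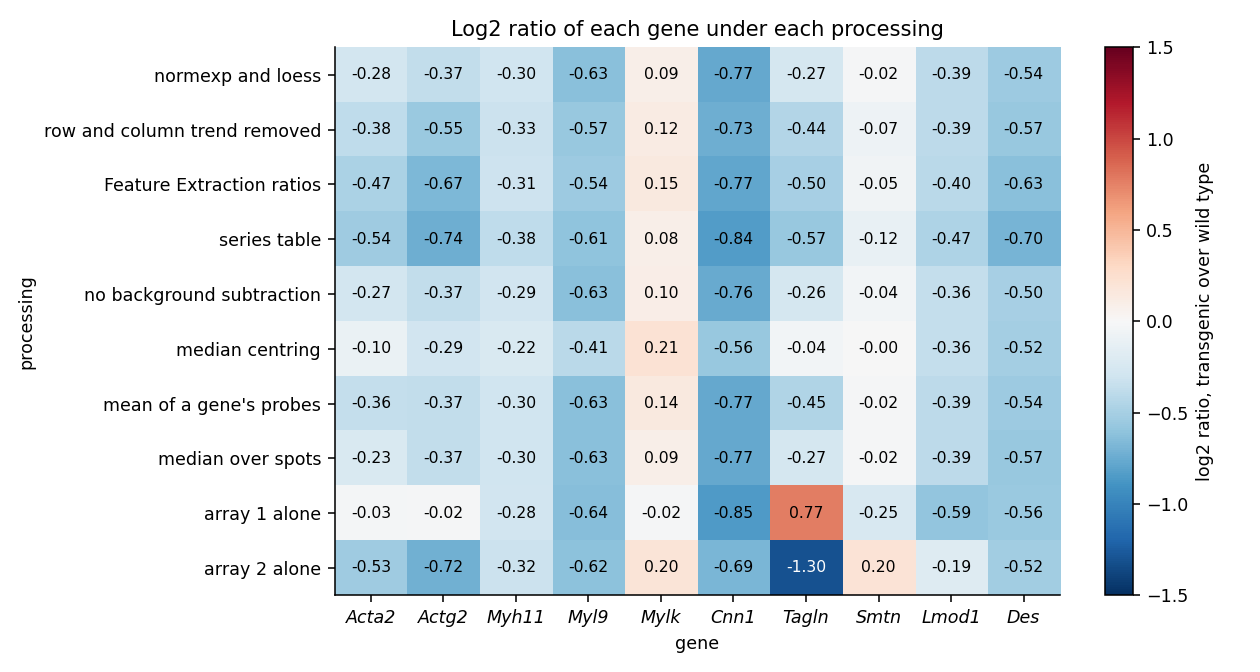
Log2 ratio of transgenic over wild type of each gene (columns) under each way of processing the arrays (rows), with the value printed in each cell. Cnn1 lies between -0.85 and -0.56 throughout, Mylk is above 0 except on array 1 alone, and Tagln has opposite signs on single arrays.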

How the data were processed

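Members and gene lists were chosen with earlier results of these data known. Per the file headers, the authors read the arrays with Agilent Feature Extraction 11.0.1.1, on an annotation of build mm9. The deposited scanner files hold median spot and background intensity per dye, not normalized, and processed intensities that Feature Extraction had background-subtracted and dye-normalized. The deposited table of the series holds 15511 rows on a log2 scale. Its columns correlated at r = 1.00 with Feature Extraction's log2 ratios turned to transgenic over wild type, after constants of -0.08 and -0.05, and each median is 0. The filter on its probes: not given in the sources used here.

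Median intensities were used, because the files hold no mean foreground signal. In R 4.3.3, limma 3.58.1 corrected background (normexp, offset 50) and then fitted loess to each array's ratios, giving control and outlier spots weight 0. Spots of a probe were averaged without outliers, ratios were turned by the labelled dyes, and the arrays were averaged. Detected means well above background on both arrays in at least 1 pool, which held for 18109 probes. Each gene took its brightest detected probe. Levels are log2 intensities per channel after loess and Aquantile scaling, and are compared only within a probe. Accessions were named from RefSeq (GRCm38.p6), where 27816 probes matched and 13358 did not. The added removal of the row and column trend is a loess fit with a span of 0.1. The normalization and the rule for calls were tested on simulated data. The number of arrays limits the precision. Named genes are the 10 members with every probe and, of each other list, up to 5 called genes, the 3 farthest from 0, and Srf, Myocd, Actb and Actg1. Of the genes this rule names, 1 is not reported here.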

Additional observations from a re-analysis of the deposited data

How the results depend on the processing

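The signs of the mean ratios (9 genes below 0 and Mylk above) were kept under each setting that uses both arrays, while 1 array alone turned some. No paired analysis was possible because both arrays carry the same pair of pools and no test was run. The median of the 10 contractile genes, -0.34, was -0.55 in the series table, and -0.26 to -0.53 on single arrays. The number called lower, 0, was 0 to 1 on single arrays and 3 by the smaller rule (a log2 ratio beyond 0.32 on each array). The 7 genes below 0 on both arrays were 0 under median centring, where the medians of all detected genes were 0.81 on array 1 and -0.74 on array 2, and 8 to 9 were below 0 on a single array. The 3 genes lower by the smaller rule were 7 in the series table, 0 under median centring, 5 with the trend removed, and 4 to 6 on single arrays. For the series table, median centring and single arrays, the shares of all detected genes were not computed. The counts under those settings therefore cannot be read as particular to the group. A single array asks less of a gene than both do, and the series table carries the constants of -0.08 and -0.05 named above. For the other contractile and cytoskeletal genes, the mean of a gene's probes gave a median of -0.19 against -0.28, and the 1 gene called higher was 0 by Feature Extraction's ratios, the series table, median centring or removal of the trend, and 1 to 2 on single arrays. The coupling genes' median, 0.00 within rounding, was -0.10 in the series table, 0.051 under median centring, -0.077 with the mean of probes, -0.032 with no filter on dim probes, -0.028 with detection in both pools, -0.056 with the trend removed, and -0.087 to -0.055 on single arrays. Of them 1 was called higher by Feature Extraction's ratios, with 0 to 1 called in each direction on single arrays. The regulators' median, -0.10, was -0.47 to 0.012 on single arrays, and 1 (Mef2c with the trend removed) was called lower by Feature Extraction's ratios, the series table and removal of the trend, and 0 to 1 on single arrays. The cause of these shifts was not tested.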
